A study of Homo sapiens with 2 samples.

Results

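Cells keep their thiols reduced with a pair of parallel systems, glutathione and thioredoxin, and both draw their electrons from NADPH, much of which the pentose phosphate pathway supplies. The transcription factor NRF2 (gene NFE2L2) switches on many genes of these systems, and KEAP1 holds it in check by presenting NRF2 to a ubiquitin ligase. Red cell precursors depend on these systems because hemoglobin and iron generate oxidants, and peroxiredoxin 2 and catalase are abundant proteins of the mature red cell. The genes described here are 47 members of the glutathione, thioredoxin, NRF2 and pentose phosphate systems, chosen by name from 25702 genes in the count files. Of these, 45 were found by symbol in the authors' deposited table and 2, GPX1 and HMOX1, by their gene identifier.

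RNA was sequenced from K562, an established erythroid leukemia line with the BCR-ABL1 fusion kinase, labelled as asynchronous cells. The DMSO group is 1 library of cells kept for 48 h in the solvent, and the cabozantinib group is 1 library of cells kept for 48 h in 1 µM cabozantinib (XL184), a multikinase inhibitor whose targets include MET and the VEGF receptors. The series asks how the drug affects the transcriptome and signaling of this leukemic line. No difference below has a replicate check, no test of the conditions could be made, and intervals cover counting error only. Because the libraries are bulk RNA, fewer cells of a kind and less RNA per cell cannot be told apart.

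The DMSO library held 25025243 counts and the cabozantinib library 25505289. The erythroid identity on the label was visible in both, since 11 of 11 erythroid markers were measured, and 10 of them were higher with cabozantinib, with a summed level of 13531 CPM (counts scaled to a library of 1000000) in DMSO and 37678 CPM with the drug. Granulocyte and monocyte markers summed to 41.7 and 9.73 CPM over 7 genes, of which MPO and ELANE had 0 counts in both libraries. Most of that sum came from CD33 (467 counts in DMSO and 44 with cabozantinib) and SPI1 (582 and 187). Lymphocyte markers summed to 11.1 and 3.07 CPM over 5 genes, mostly from CD3D (247 and 59 counts), with MS4A1 at 0. Megakaryocyte markers summed to 14.0 and 6.34 CPM over 5 genes, nearly all from ITGA2B (359 and 157 counts), with GP1BA, GP9 and PF4 at 0. Fibroblast and epithelial markers summed to 535 and 394 CPM over 6 genes, nearly all of it from KRT8, KRT18 and EPCAM. The part of these shifts in the results below was not tested.

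The antioxidant response element, the site that NRF2 binds together with small MAF proteins, has the core TGACNNNGC, where N is any base. Promoter sequences from RefSeq (GRCh38.p14, a later build than the hg19 of the counts) were found for 39 of the 47 members, with 55 start sites in all. Within 250 bases upstream of a start, 7 of these 39 genes (17.9%) held the core on either strand, compared with 2333 of 15843 protein-coding genes (14.7%). Among members known as NRF2 targets it was 3 of 11. The windows below show the core in capitals with its flanks, read 5′ to 3′ on the strand of the gene, and were chosen from those 7 genes (GCLM, KEAP1, GSTP1, TXNRD1, PGD, RPE and GSTO1) to show the core in a regulator, a synthesis gene, a transferase, a reductase and a pentose phosphate gene. The core was read on the opposite strand where the capitals end in GTCA.
GCLM (chr1:93909436-93909484, minus strand): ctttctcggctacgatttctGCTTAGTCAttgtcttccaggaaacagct
KEAP1 (chr19:10502774-10502845, minus strand): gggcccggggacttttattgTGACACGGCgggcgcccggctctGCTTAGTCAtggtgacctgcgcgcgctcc
GSTP1 (chr11:67583726-67583774, plus strand): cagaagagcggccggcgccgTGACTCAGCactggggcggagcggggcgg
TXNRD1, downstream start (chr12:104286910-104286958, plus strand): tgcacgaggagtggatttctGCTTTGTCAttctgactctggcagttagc
PGD (chr1:10398843-10398891, plus strand): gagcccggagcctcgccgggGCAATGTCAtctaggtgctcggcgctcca
GCLM and KEAP1 held the same 9 bases, GCTTAGTCA. GSTP1 held TGACTCAGC, a form that is also a site for the erythroid factor NF-E2 and that overlaps the shorter AP-1 site, and which occurred upstream of 85 of the 15843 genes (0.537%). The core was found in none of the windows of the 9 members that differed by 1.5-fold, which says only that these letters are absent from 250 bases.

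A gene was counted as measured if either library reached 1 CPM. It was counted as higher or lower where its levels differed 1.5-fold or more (0.58 on the log2 scale) and the exact (Clopper-Pearson) 95% interval of its ratio excluded no change. By this rule 44 members were measured, 5 were higher with cabozantinib (11.4%) and 4 were lower (9.09%). Over all 12536 measured genes 8.15% were higher and 12.3% lower, so neither share of the members stood far from that of genes in general. The median log2 ratio was 0.03 over the members and 0.01 over all measured genes. Most members lay close to no change, with 25 of 44 (56.8%) inside 1.25-fold, against 56.3% of all measured genes. At 2-fold, where 2.71% of measured genes were higher and 5.76% lower, no member was higher and only OSGIN1 was lower.

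**Figure D1:**
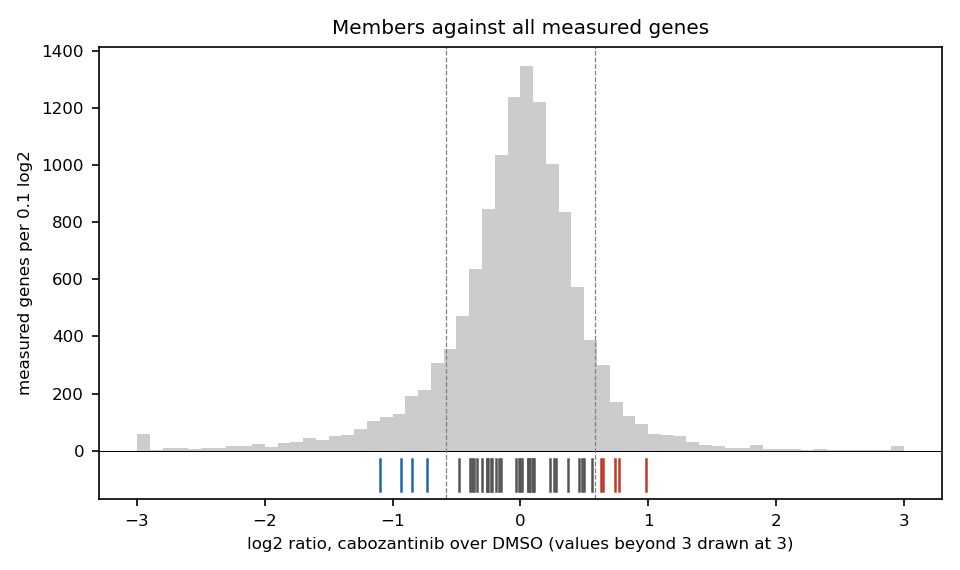
Histogram of log2 ratios (cabozantinib over DMSO) of 12536 measured genes in bins of 0.1, with the 44 measured members as ticks beneath. Dashed lines mark 1.5-fold; 5 members (red) lie above them and 4 (blue) below, and the other 35 (grey) lie between.

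The members were deeply counted, so that small differences exceed counting error. Their median count in DMSO was 3543, against 808 over all measured genes, and 21 of 44 stood above percentile 90 of all measured genes in level per length. For 37 of 44 members (84.1%) the counting interval excluded no change, compared with 66.9% of measured genes. Differences between cultures are not in these intervals, and neither is the choice of scaling. Under scaling by total counts the log2 ratios of 26 members left their own intervals. Those of PRDX3, PRDX6 and TALDO1, which are among the 37, then turned to -0.03, -0.03 and -0.02. Of 45 members listed in the authors' deposited table, NFE2L1 and OSGIN1 (2 genes) reached a posterior probability of 0.95 for a difference (0.953 and 0.969), each of them lower. The authors' deposited table gave that probability to 3.27% of its 17392 genes as lower and to 1.39% as higher, with 0 members among the latter.

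Both members that encode CNC transcription factors were lower, and KEAP1, the inhibitor of NRF2, had a ratio above 1 that did not reach 1.5-fold. NFE2L1 (hg19 chr17:46125686-46138907, 6 exons), which drives proteasome and basal antioxidant genes, had 9029 counts in DMSO and 4545 with cabozantinib, or 350 and 183 CPM. It was 1.91-fold lower (95% counting interval 1.84 to 1.98). NFE2L2 (chr2:178095033-178129859), which encodes NRF2 itself, had 4555 and 2434 counts (177 and 98.3 CPM), 1.80-fold lower (1.71 to 1.89). KEAP1 (chr19:10596796-10614054), whose upstream window with a pair of cores is shown above, had 2075 and 2780 counts, a fold of 1.39 (1.32 to 1.48).

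Ratios between genes within a library do not depend on how the libraries are scaled. NFE2L2 had 2.20 counts for each KEAP1 count in DMSO and 0.876 with cabozantinib, a ratio 2.51-fold lower (2.32 to 2.71). Per length, KEAP1 went from the lowest of these 3 genes (29.8 CPM per kb, against 71.9 for NFE2L1 and 52.9 for NFE2L2) to the highest (41.6 CPM per kb, against 37.6 and 29.4). The ratio of NFE2L1 to NFE2L2 was 1.98 and 1.87, and its change had an interval that included none (0.886 to 1.00).

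**Figure D2:**
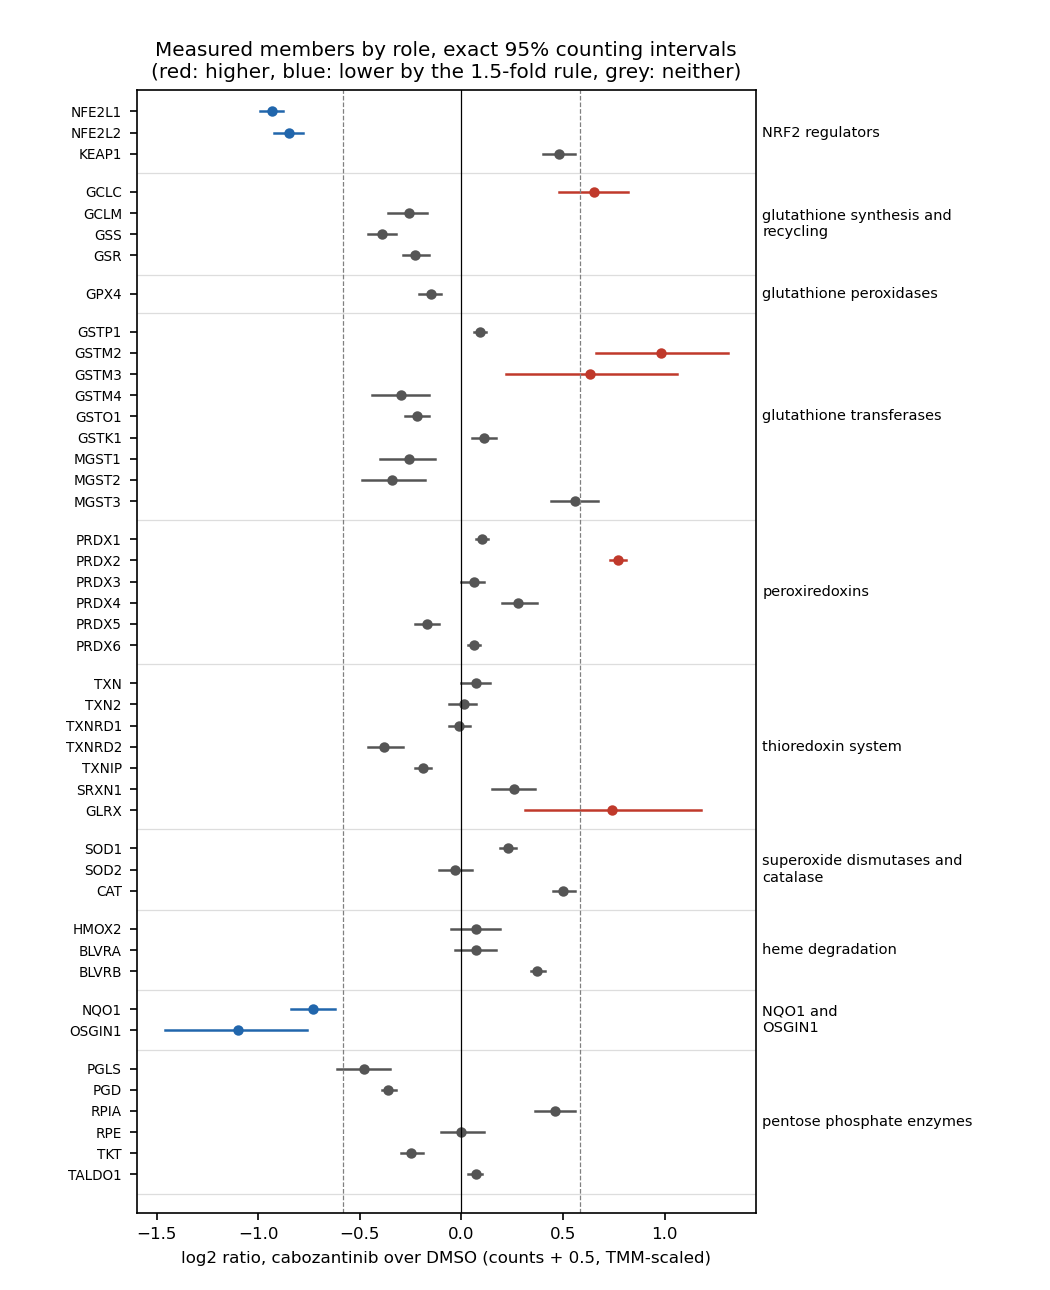
Log2 ratios of the 44 measured members (x axis, cabozantinib over DMSO) in 10 role groups, with bars for the exact 95% counting intervals and dashed lines at 1.5-fold. NFE2L1, NFE2L2, NQO1 and OSGIN1 are lower, and GCLC, GSTM2, GSTM3, PRDX2 and GLRX are higher.

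NQO1 and OSGIN1, often used as readouts of NRF2, were the other lower members. NQO1 (chr16:69743304-69760533), a quinone reductase, had 1759 counts in DMSO and 1018 with cabozantinib (68.3 and 41.1 CPM), 1.66-fold lower (1.54 to 1.80). OSGIN1 (chr16:83982672-83999937), a growth inhibitor induced by oxidative stress, had 226 and 101 counts (8.77 and 4.08 CPM), 2.15-fold lower (1.69 to 2.75). TXNRD1, another NRF2 target, had nearly level counts of 7884 and 7524. NQO1 had 0.223 counts for each TXNRD1 count in DMSO and 0.135 with cabozantinib, a ratio 1.65-fold lower (1.52 to 1.79).

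The wider set of NRF2 targets among the members lay near the share of genes in general. Of 13 measured (GCLC, GCLM, GSR, TXN, TXNRD1, SRXN1, PRDX1, MGST1, NQO1, OSGIN1, PGD, TKT and TALDO1) 1 was higher (7.69%) and 2 were lower (15.4%), against 8.15% and 12.3% of all measured genes, with a median log2 ratio of -0.23. The 14th, HMOX1, which encodes the inducible heme oxygenase, was at 0 counts in DMSO and in cabozantinib, a result that up to 3 counts per library would allow, and whether reads of it were left unassigned was not tested. Outside the members, 11 further NRF2 targets were measured, with 0 higher and 4 lower (36.4%) and a median of -0.41, against 0.01 over all measured genes, and the difference was not tested. These 4, named after their values were seen, were NQO2 (111 and 57.2 CPM), ME1, AKR1C1 and AKR1C2, and the last pair share sequence so that their counts are uncertain individually.

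Glutathione is made by glutamate-cysteine ligase, a dimer of the catalytic subunit GCLC and the modifier GCLM, and then by the synthetase GSS, and GSR returns the oxidized form to the reduced one. The gene of the catalytic subunit was higher while the other 3 genes were slightly lower. GCLC (chr6:53362139-53409831) had 473 and 712 counts in the DMSO and cabozantinib libraries (18.4 and 28.7 CPM), 1.57-fold higher (1.39 to 1.76), a size that dropped below the rule under scaling by total counts (log2 ratio 0.56). GCLM (chr1:94352590-94375012) had 2117 and 1696 counts, a log2 ratio of -0.26 (-0.36 to -0.17). The ratio of GCLC to GCLM counts went from 0.223 to 0.420, 1.88-fold higher (1.64 to 2.15). Per length the RNA of the modifier remained the more abundant, at 26.7 and 22.3 CPM per kb against 4.94 and 7.73 for GCLC, and protein was not measured. GSS had a log2 ratio of -0.39 (-0.46 to -0.32) and GSR one of -0.23 (-0.29 to -0.16).

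Of the glutathione peroxidases only GPX4, which reduces lipid hydroperoxides in membranes, was measured. It had 5886 and 5087 counts, a log2 ratio of -0.15 (-0.21 to -0.10). GPX1 (chr3:49394609-49395791), the cytosolic enzyme, was likewise at 0 counts in each library, and whether reads of it were left unassigned was not tested. GPX7, a peroxidase of the endoplasmic reticulum, had 1 and 0 counts.

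The glutathione transferases, which couple glutathione to reactive compounds, were led in both libraries by GSTP1. Its level per length was 856 CPM per kb in DMSO and 910.2 with cabozantinib, 65.6% and 67.0% of the sum over the 9 transferases, on 21124 and 21600 counts. Its log2 ratio was 0.09 (0.06 to 0.12), and 0.00 when libraries were scaled by total counts. GSTO1 and GSTK1 came next in both libraries, at 172 and 121 CPM per kb in DMSO. The 2 transferases counted as higher were the lowest of the 9 in level.

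GSTM2 (chr1:110210644-110226619) had 120 and 228 counts (4.66 and 9.20 CPM), 1.97-fold higher (1.58 to 2.49), the largest ratio among the members. GSTM3 (chr1:110276554-110283660) had 81 and 121 counts, 1.55-fold higher (1.16 to 2.09), which scaling by total counts took below the rule (log2 ratio 0.55). Their neighbour GSTM4 (chr1:110198698-110208123) went the other way, with 960 and 749 counts and a log2 ratio of -0.30 (-0.44 to -0.16). The count ratio of GSTM2 to GSTM4 was 2.44-fold higher with the drug (1.90 to 3.13). The mu-class genes are related copies in 1 cluster, of which GSTM3 is the more divergent. Their shared sequence was not measured, and reads may be split between GSTM2 and GSTM4, so those values are uncertain.

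Among the microsomal transferases, which sit in membranes, MGST3 was apart from its relatives. MGST3 had 1050 and 1485 counts, a log2 ratio of 0.56 (0.44 to 0.67), just short of the rule. MGST1 and MGST2 had log2 ratios of -0.26 (-0.40 to -0.13) and -0.34 (-0.49 to -0.18). Per length MGST3 was the highest of the 3 in both libraries, at 61.5 CPM per kb in DMSO and 90.4 with cabozantinib.

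**Figure D3:**
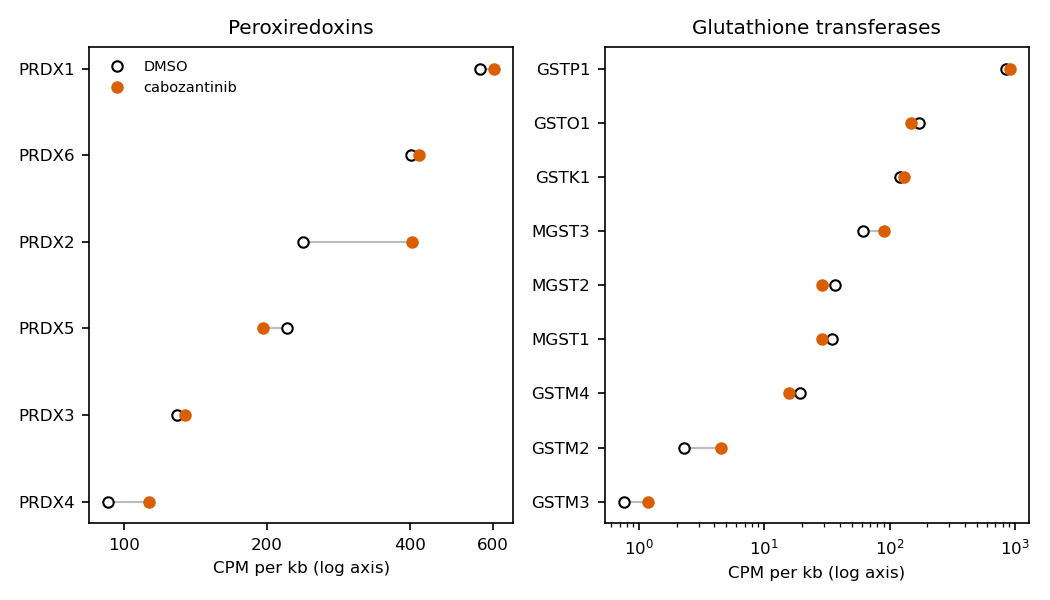
Levels per length (CPM per kb, log axes) of the 6 peroxiredoxins and the 9 glutathione transferases in the DMSO library (open) and the cabozantinib library (filled). PRDX2 stands at 238 CPM per kb in DMSO and 405 with cabozantinib, close to PRDX6, and GSTP1 is the highest transferase in both.

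Peroxiredoxins reduce hydrogen peroxide with electrons from thioredoxin, except PRDX6, which uses glutathione. As a family they summed to 2165 CPM in DMSO and 2466 CPM with cabozantinib. Of the 6, 1 was higher (16.7%), against 8.15% of all measured genes. PRDX2 (chr19:12907634-12912694), the main red cell form, had 8050 and 13167 counts in the DMSO and cabozantinib libraries (312 and 532 CPM), 1.70-fold higher (1.65 to 1.75). It made up 14.5% of the family per length in DMSO and 21.7% with the drug. PRDX1, the most abundant of the 6 peroxiredoxins per length in both libraries, had 17904 and 18427 counts. The ratio of PRDX2 to PRDX1 was 1.59-fold higher with the drug (1.54 to 1.65).

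The other peroxiredoxins lay within 1.25-fold. PRDX4, the form of the secretory pathway, had a log2 ratio of 0.28 (0.20 to 0.37), and PRDX5, found in several organelles, one of -0.17 (-0.23 to -0.11). PRDX6 (17316 and 17327 counts) and the mitochondrial PRDX3 (5289 and 5295 counts) had log2 ratios of 0.06 each, and each became -0.03 when libraries were scaled by total counts.

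Of the 7 genes of the thioredoxin system and its relatives 1 was higher (14.3%), on few counts, and none lower. Of all measured genes 8.15% were higher and 12.3% lower. TXN, the cytosolic thioredoxin, had 3360 and 3381 counts, a log2 ratio of 0.07 (-0.00 to 0.14), and its mitochondrial form TXN2 3726 and 3599 counts, a ratio of 0.01 (-0.06 to 0.07). Both signs turned under scaling by total counts (-0.02 and -0.08), and that of TXN2 under other settings too. TXNRD1, the cytosolic reductase that recharges TXN, had a log2 ratio of -0.01 (-0.06 to 0.04), and the mitochondrial TXNRD2 one of -0.38 (-0.46 to -0.29).

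TXNIP, an inhibitor that binds thioredoxin, had 9964 and 8382 counts, a log2 ratio of -0.19 (-0.23 to -0.15). SRXN1, sulfiredoxin, which repairs overoxidized peroxiredoxins, had 1400 and 1608 counts, a ratio of 0.26 (0.15 to 0.36). GLRX (chr5:95149553-95158577), glutaredoxin, had 74 and 119 counts (2.87 and 4.80 CPM), 1.67-fold higher (1.24 to 2.27). Per length GLRX was the lowest of the 7 in both libraries, at 0.271% and 0.462% of their sum.

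Superoxide dismutases turn superoxide into hydrogen peroxide and catalase breaks that down, and none of the 3 passed 1.5-fold. CAT (chr11:34460472-34493607) had 5297 and 7220 counts (DMSO, then cabozantinib), 1.42-fold higher (1.37 to 1.47). SOD1, the cytosolic enzyme, had 9786 and 11055 counts, a log2 ratio of 0.23 (0.19 to 0.27), whereas the mitochondrial SOD2 had 2519 and 2368, a ratio of -0.03 (-0.11 to 0.05). The count ratio of SOD2 to SOD1 went from 0.257 to 0.214. The 4 mitochondrial enzymes of these families named here (PRDX3, TXN2, TXNRD2 and SOD2) lay within 1.5-fold, and only TXNRD2 was outside 1.25-fold.

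In heme degradation, heme oxygenase yields biliverdin, which the biliverdin reductase BLVRA reduces. BLVRB (chr19:40953691-40971725), an erythroid-abundant flavin reductase, had 12519 and 15590 counts, 1.30-fold higher (1.27 to 1.33). BLVRA had 1654 and 1666 counts and the constitutive oxygenase HMOX2 1159 and 1170, each with a log2 ratio of 0.07, an interval that included no change and a negative ratio under scaling by total counts. BLVRB had 7.57 counts for each BLVRA count in DMSO and 9.36 with cabozantinib. Beside these values and that of PRDX2, the 11 erythroid markers had a median log2 ratio of 1.5, and their part in the members' ratios was not tested.

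None of the 6 pentose phosphate enzymes passed 1.5-fold, with log2 ratios from -0.48 to 0.46. In the oxidative branch, which makes NADPH, both measured members were lower by less than that. PGLS, the lactonase, had 1194 and 821 counts, a log2 ratio of -0.48 (-0.61 to -0.35), and PGD (chr1:10459085-10480201), the dehydrogenase that yields the pathway's later NADPH, had 15041 and 11294 counts (584 and 456 CPM), a ratio of -0.36 (-0.39 to -0.32).

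In the branch that interconverts sugars the genes went different ways. RPIA, the ribose phosphate isomerase, had 1374 and 1820 counts, a log2 ratio of 0.46 (0.36 to 0.56), whereas RPE, the epimerase, had 1459 and 1405 counts and a ratio of 0.00 (-0.10 to 0.11), whose sign depended on the scaling. RPE shares 857 of its 2551 annotated bases with KANSL1L on the opposite strand, and whether the counting used strand is not stated, so reads of such partners cannot be told apart. Shorter overlaps of this kind included 130 bases for HMOX2 (with NMRAL1) and 33 for PRDX1 (with MMACHC). TKT, transketolase, had 5590 and 4526 counts, a ratio of -0.25 (-0.30 to -0.19). TALDO1, transaldolase, had 12254 and 12350 counts, a ratio of 0.07 that turned to -0.02 under scaling by total counts. TALDO1 was the highest of the 6 per length, 44.9% of their sum in DMSO and 50.7% with cabozantinib. The ratio of PGD to TALDO1 went from 1.23 to 0.914, 1.34-fold lower (1.30 to 1.39).

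**Figure D4:**
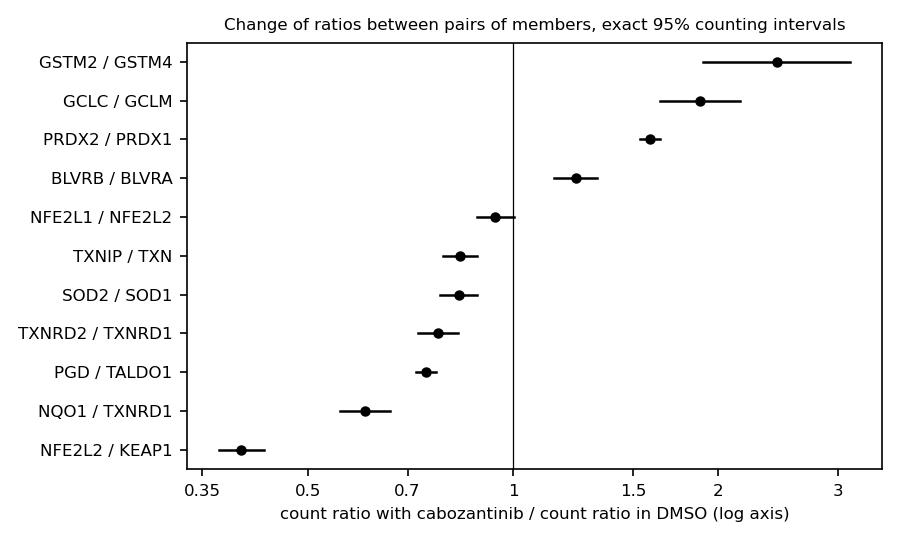
Change of the count ratio between 11 pairs of members (with cabozantinib over DMSO, log axis) with exact 95% counting intervals, a measure that does not depend on library scaling. NFE2L2 over KEAP1 changes most downward (0.399) and GSTM2 over GSTM4 most upward (2.44), and NFE2L1 over NFE2L2 is the only pair whose interval includes 1.

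Among 75 other genes of the same pathways 63 were measured, of which 5 were higher (7.94%) and 16 were lower (25.4%), against 8.15% and 12.3% of all measured genes. Their median log2 ratio was -0.19. The difference from the members was not tested. In cystine supply and glutathione turnover 5 of 14 were lower and 2 higher (median -0.31), and the group held CHAC1 and CTH, the lowest ratios of the 63 genes. CHAC1, which degrades glutathione, went from 131 to 16.5 CPM, 7.96-fold lower (7.19 to 8.85). CTH, which makes cysteine from cystathionine, went from 216 to 44.9 CPM, 4.81-fold lower (4.51 to 5.13). SLC7A11, the cystine importer, went from 286 to 123 CPM, 2.33-fold lower (2.24 to 2.43). All 3 are also known targets of the stress factor ATF4, whose part in these values was not tested. In the opposite direction SLC25A39, the mitochondrial glutathione carrier, named after its value was seen, went from 313 to 584 CPM, 1.87-fold higher (1.82 to 1.92).

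**Figure D5:**
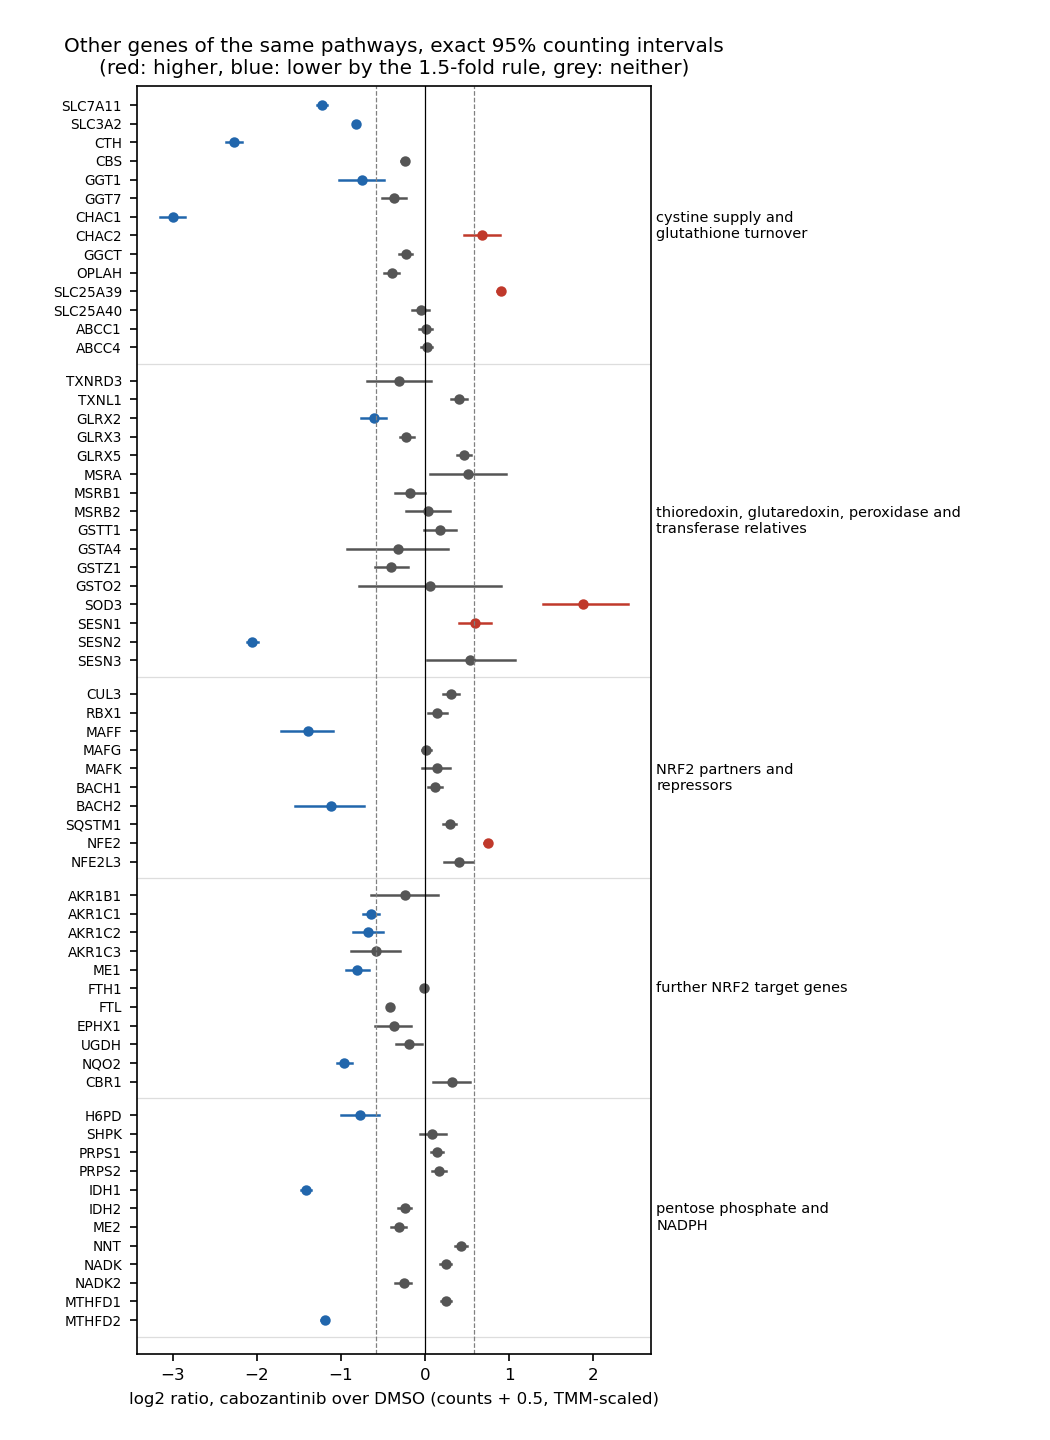
Log2 ratios (cabozantinib over DMSO) of the 63 measured other genes of these pathways in 5 groups, with exact 95% counting intervals and dashed lines at 1.5-fold. CHAC1, CTH and SESN2 lie farthest to the left and SOD3 farthest to the right.

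Of 16 measured relatives of the redox enzymes (median 0.05), 2 were higher (12.5%) and 2 lower (12.5%), against 8.15% and 12.3% of all measured genes. SESN2, a stress-induced sestrin, had 7814 and 1815 counts, 4.14-fold lower (3.93 to 4.36). SOD3, the secreted superoxide dismutase, went from 45 to 161 counts, 3.69-fold higher (2.66 to 5.30). Of 10 NRF2 partners and repressors, 2 were lower and 1 was higher (median 0.14). The small MAF gene MAFF had 326 and 119 counts and was 2.63-fold lower (2.13 to 3.28), as was the repressor BACH2 with 170 and 75 counts, 2.17-fold lower (1.65 to 2.90). The higher gene was NFE2, the erythroid relative of NFE2L1 and NFE2L2 that shares their small MAF partners, from 267 to 448 CPM, 1.68-fold higher (1.63 to 1.73), also named after its value was seen. The other small MAF genes and BACH1 lay within 1.25-fold.

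Of 12 measured genes of pentose phosphate and NADPH supply outside the members, 3 were lower and 0 higher, and their median log2 ratio was -0.08. The cytosolic isocitrate dehydrogenase IDH1, which makes NADPH, went from 333 to 125 CPM, 2.65-fold lower (2.55 to 2.77). MTHFD2, a mitochondrial folate enzyme, went from 710.3 to 311 CPM, 2.29-fold lower (2.23 to 2.35). The third, named after its value was seen, was H6PD, the lumenal enzyme of the endoplasmic reticulum, with 449 and 253 counts.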

How the data were processed

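For each library the authors deposited raw counts by Entrez gene, from reads aligned with Rsubread to hg19, per the file headers. Both hg19 and GRCh37 are named in the submitters' processing notes. Libraries were strand-specific TruSeq libraries from total RNA, per the labels' protocols. Versions and counting settings are not stated. The authors' deposited table holds a score per gene (posterior probabilities of equal and differential expression) and a fold ratio. It was read as cabozantinib over DMSO because its sign matched the counts in 11348 of 11445 genes (those with 100 counts or more summed). A further 4 columns of that table, of values without a sample label, were left out.

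Counts were scaled with TMM over the whole table (edgeR 4.0.16, R 4.3.3; factors 1.03 and 0.971 for the DMSO and cabozantinib libraries). Log2 ratios are of counts plus 0.5, and levels between genes are CPM per kb of the deposited gene length. Ratios of pairs have exact conditional 95% intervals. Group labels came from the treatment label. All members are named. Other pathway genes are named when past 2-fold with at least 5 CPM in 1 library. Exceptions are BACH1 and the genes marked as named after their values were seen, and not every other gene past 1.5-fold is named. The members, lists, pairs and motif were chosen with earlier results of these data known. Calculations were tested on simulated counts. DESeq2 1.42.0 gave alternative size factors, and intervals came from scipy 1.17.1 under Python 3.11.15.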

Additional observations from a re-analysis of the deposited data

How the results depend on the processing

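Under scaling by total counts 3 members were higher in place of 5, and the median log2 ratio of the members was -0.05 in place of 0.03, beside -0.07 over all measured genes. Of all measured genes 6.05% were then higher and 14.6% lower, in place of 8.15% and 12.3%. With a filter of 5 CPM 3 members were higher, since GSTM3 and GLRX stayed below it in both libraries. Of all genes past that filter 6.80% were higher and 9.74% lower. At 2-fold 0 members were higher and 1 was lower, beside 2.71% and 5.76% of all measured genes. The count of 4 lower members was the same under each other setting run, namely total counts, DESeq2 size factors, upper quartile, TMM without globin and mitochondrial genes, no filter, 5 CPM, a pseudocount of 5, the deposited fold and removal of a length trend. Across these settings the share of all genes that were lower ranged from 9.74% to 14.6%. No member counted as higher or lower changed sign under any of them. Of the members counted as higher or lower, 4 (GSTM2, GSTM3, GLRX and OSGIN1) had under 250 counts in both libraries, which makes their intervals the widest. No paired analysis was possible because each group holds 1 library, and for the same reason no library could be left out.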
